A study of Mus musculus with 25 samples.

Results

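Ferroptosis is a death of cells by peroxidation of membrane lipids, and 10 genes that either restrain it, feed it or belong to the antioxidant response around it were followed across 5 murine melanoma lines: Gpx4, Aifm2, Acsl4, Nqo1, Gclc, Gclm, Txnrd1, Srxn1, Hmox1 and Fth1. They were taken by name, as 10 of the 55385 genes in the expression tables, and all 10 passed the filter on low counts that left 15247 genes for testing. RNA-seq of untreated cultures at 50% confluency comprised 5 biological replicates per line, 25 libraries in all, and served to compare lines that differ in how readily they colonise the liver. High and intermediate metastatic lines (HIM-melanoma) were WT31, B16F10 luc2 and RET, and low metastatic lines (LM-melanoma) were D4M and HCmel12. B16F10 luc2 is a B16F10 derivative carrying a luciferase reporter. WT31 came from Tyr::Nras Q61K mice lacking INK4a (INK4a-/-), in which the tyrosinase promoter restricts the mutant Nras to pigment cells. RET cells came from mice with a RET transgene under the mouse metallothionein promoter, HCmel12 from a primary melanoma of an HGF-CDK4 R24C mouse, and D4M from a Tyr::CreER; Braf CA model. Each group is thus 1 cell line, so that the p-values below measure the spread between cultures of a line and not between tumours. D4M was grown in another basal medium than the other lines, and the medium of HCmel12 contained β-mercaptoethanol, a reducing agent, so that line and medium cannot be told apart for D4M and HCmel12.

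As background, glutathione peroxidase 4 reduces lipid hydroperoxides with glutathione, and ferroptosis suppressor protein 1, encoded by Aifm2, regenerates ubiquinol that traps lipid radicals, while ACSL4 activates the polyunsaturated fatty acids that are the substrate of peroxidation. Iron drives the chain reaction, heme oxygenase 1 (Hmox1) releases it and ferritin heavy chain (Fth1) stores it. The transcription factor NRF2 (Nfe2l2), which KEAP1 holds in check, induces Nqo1, Gclc, Gclm, Txnrd1, Srxn1, Hmox1 and Fth1 through antioxidant response elements, and loss of melanocyte differentiation has been tied to ferroptosis sensitivity in melanoma.

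Library totals lay between 24199083 and 25843286 counts, so that 3 counts corresponded to 0.111 to 0.138 CPM (counts scaled to a common library total), which is also what a count of 0 allows. Levels are given as CPM scaled by TMM, as mean ± SD over the 5 libraries of a line unless stated otherwise. The summed level of 16 melanocyte differentiation markers was 162 to 333 CPM in D4M libraries and 15530 to 42148 CPM in libraries of the other lines, and all 16 were lower in D4M than in each of the other lines. Mitf, the master regulator of the melanocyte lineage, was measured at 6.38 ± 0.41 CPM in D4M and between 416 ± 82.4 CPM in WT31 and 692 ± 81.6 CPM in B16F10 luc2. Tyr, which encodes the key enzyme of pigment synthesis, was at 0 to 0.806 CPM in D4M libraries (median 0.046), 12.5 ± 9.88 CPM in HCmel12 and 3982 ± 403 CPM in WT31, while Gpr143 and Oca2 were at or under 3 counts in every D4M library. D4M replicate 1 held 27 CPM of Tyrp1 and 2.07 CPM of Sox10, against at most 2.85 and 0.511 CPM in the other D4M libraries. Without it 2 of the 63 calls among members were lost (Aifm2 in RET against D4M and Fth1 in D4M against HCmel12) and 0 gained. Of 16 markers of other cell types, Ptprc, Adgre1, Cd3e, Krt5, Krt14, Lum, Alb and Hba-a1 were at or under 3 counts in all libraries, and the sum of the 16 was 56.2 to 90.2 CPM in D4M against 2.01 to 7.59 CPM elsewhere, with Pdgfra at 59.5 ± 10.9 CPM in D4M. Whether this state of D4M has a part in the differences below was not tested. In bulk RNA, fewer expressing cells and less RNA per cell cannot be told apart.

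On the TPM scale, which accounts for transcript length, the members spanned a wide range of levels within a line. Fth1 was the highest in each line, with line means from 3749 ± 349 TPM in RET to 6530 ± 1182 TPM in WT31 (SD, n = 5). Gpx4 followed with 480 ± 27.8 TPM in B16F10 luc2 to 712 ± 94.9 TPM in HCmel12, and Txnrd1 with 133 ± 15 TPM in D4M (n = 4) to 242 ± 35.4 TPM in B16F10 luc2. Gclm, Srxn1 and Hmox1 had line means between 31.9 and 109 TPM. Gclc, the catalytic subunit of the same enzyme as Gclm, had lower line means than Gclm in every line, from 16.9 ± 0.951 TPM in RET to 43.6 ± 10.6 TPM in HCmel12. Aifm2 was low in all lines, with 5.41 ± 0.977 TPM in HCmel12 to 14.3 ± 1.82 TPM in B16F10 luc2. Transcripts of the peroxidase brake were therefore more abundant than those of the ubiquinol brake in every line.

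**Figure D1:**
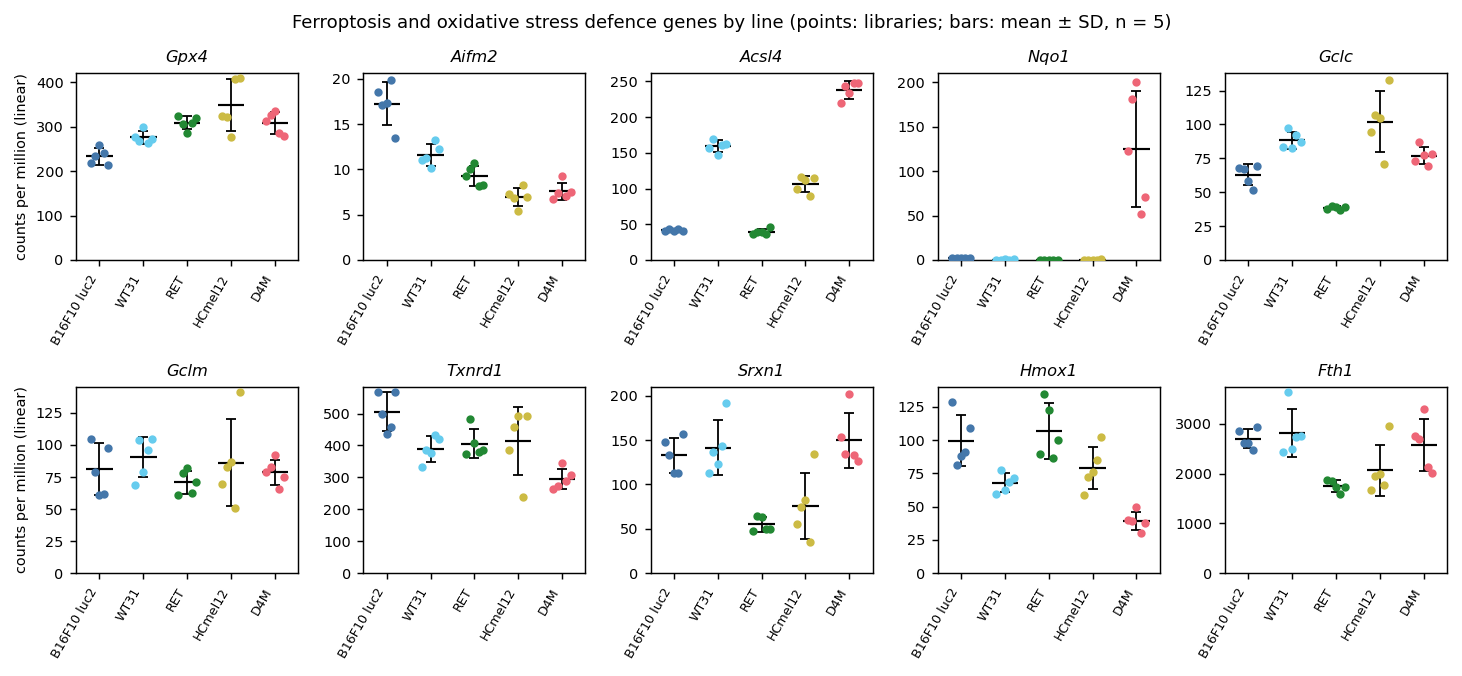
Level of each gene in CPM (linear axis from 0) in the 25 libraries, by line. Points are libraries and bars are the mean ± SD of 5. Nqo1 reached 51.8 to 200 CPM in D4M and at most 2.02 CPM elsewhere, Acsl4 was highest in D4M and WT31, Aifm2 was highest in B16F10 luc2 and lowest in the LM lines, and the libraries of all lines overlapped for Gclm, most widely spread in HCmel12 (51 to 141 CPM).

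Nqo1 and Acsl4 differed most between lines and Gclm least. The span between the highest and lowest line mean was 9.54 on the log2 scale for Nqo1 and 2.59 for Acsl4, against a median of 1.41 over all 15247 genes tested. Spans of Hmox1, Srxn1, Gclc and Aifm2 lay between 1.31 and 1.44, close to that median. Txnrd1 (0.77), Fth1 (0.67), Gpx4 (0.57) and Gclm (0.34) had smaller ones, and 3.6% of all genes had a span smaller than or equal to that of Gclm. With voom and limma at an adjusted p under 0.05 over all genes tested, Acsl4 and Aifm2 were called between 9 of the 10 pairs of lines, Gclc and Hmox1 between 8, Nqo1, Txnrd1, Srxn1 and Fth1 between 6, Gpx4 between 5 and Gclm between 0. The median gene was called between 8 pairs.

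Read against the whole transcriptome, the number of members called was near the background in most comparisons, since the lines differed in the majority of genes. Relative to D4M, WT31 differed in 5 members (3 higher, 2 lower) where 76.1% of all genes were called (37.5% higher, 38.6% lower). B16F10 luc2 differed from D4M in 7 (3 higher, 4 lower; background 77.7%, 38.8% and 38.9%), and RET in 8 (3 higher, 5 lower, with 77.1%, 38.8% and 38.3% of all genes). Acsl4 and Nqo1 were lower and Aifm2, Hmox1 and Txnrd1 higher in each of these 3 lines than in D4M. Relative to HCmel12, WT31 differed in 5 members (4 higher, 1 lower, against 70.4%, 36.1% and 34.3%), B16F10 luc2 in 9 (6 higher, 3 lower, against 69.1%, 35.3% and 33.8%) and RET in 4 (2 higher, 2 lower, against 67.2%, 34.0% and 33.3%). Among HIM-melanoma, WT31 differed from B16F10 luc2 in 6 members (3 higher, 3 lower, with 72.8% of all genes called and 36.4% in each direction) and from RET in 6 (5 higher, 1 lower, with 73.2%, 36.8% and 36.4%). B16F10 luc2 differed from RET in 6 (5 higher, 1 lower), where the background was lowest at 51.5% (25.2% higher, 26.2% lower). D4M differed from HCmel12 in 7 (4 higher, 3 lower, with 72.5%, 36.8% and 35.7% of all genes).

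**Figure D2:**
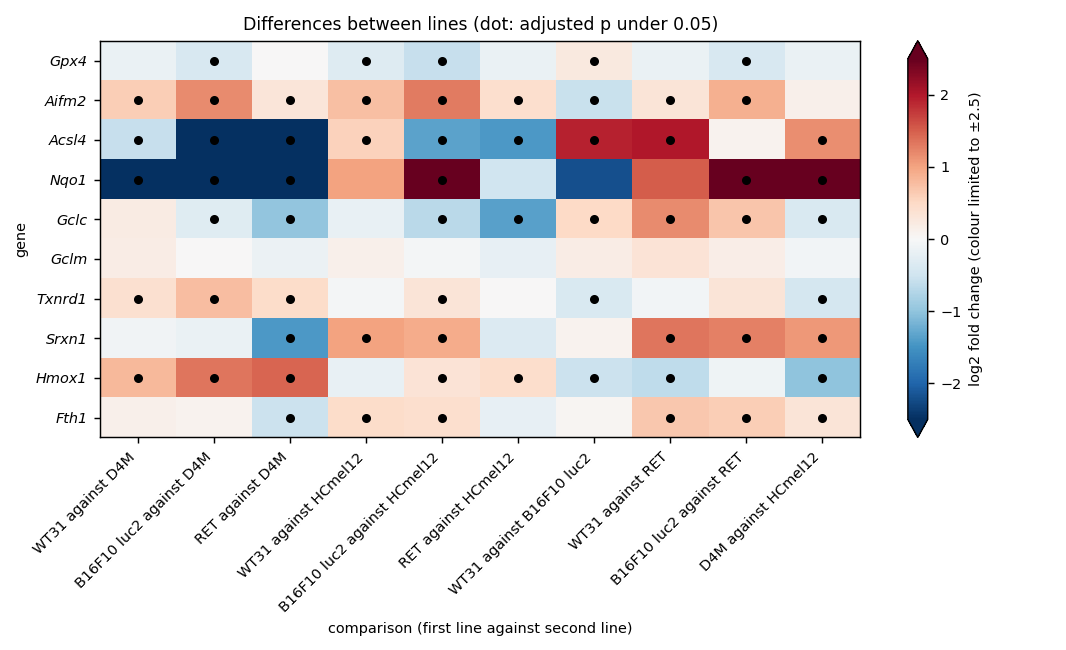
Log2 fold change of each gene (rows) in each of the 10 comparisons of lines (columns, first line against second line). Colour gives the fold change, limited to 2.5 in either direction, and a dot marks an adjusted p under 0.05. The Gclm row holds 0 dots, Acsl4 and Nqo1 carry the strongest colours, and Hmox1 and Aifm2 are higher in all HIM lines than in D4M.

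Promoter sequence was looked at for the genes whose values stand out below: Nqo1 for its high level in D4M, and Gclm, Srxn1 and Txnrd1 because they moved together among cultures. The RefSeq table for GRCm38.p6 held promoter windows for 8 of the 10 members, and the 250 bases before each annotated start were searched on both strands for TGACNNNGC, the core of the antioxidant response element. A match was found in 2 of the 14 member windows, those of Gclm and of the second of 3 Txnrd1 start sites, compared with 10.16% of all 32851 windows. The windows are given 5′ to 3′ on the strand of the gene, in lower case with the match in capitals: Gclm at chr3:122245307-122245556 (plus strand), Txnrd1 at chr10:82858956-82859205 (plus), Srxn1 at chr2:152105274-152105523 (plus) and Nqo1 at chr8:107403206-107403455 (minus).
Gclm: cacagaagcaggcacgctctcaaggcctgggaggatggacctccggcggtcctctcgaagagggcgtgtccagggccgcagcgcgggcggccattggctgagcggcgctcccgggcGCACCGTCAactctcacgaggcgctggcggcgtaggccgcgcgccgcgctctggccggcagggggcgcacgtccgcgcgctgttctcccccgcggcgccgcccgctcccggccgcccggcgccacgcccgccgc
Txnrd1: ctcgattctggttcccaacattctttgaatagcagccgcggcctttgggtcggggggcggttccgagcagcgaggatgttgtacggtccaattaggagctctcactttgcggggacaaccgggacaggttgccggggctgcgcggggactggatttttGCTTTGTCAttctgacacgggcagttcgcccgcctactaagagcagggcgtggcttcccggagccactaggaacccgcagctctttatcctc
Srxn1: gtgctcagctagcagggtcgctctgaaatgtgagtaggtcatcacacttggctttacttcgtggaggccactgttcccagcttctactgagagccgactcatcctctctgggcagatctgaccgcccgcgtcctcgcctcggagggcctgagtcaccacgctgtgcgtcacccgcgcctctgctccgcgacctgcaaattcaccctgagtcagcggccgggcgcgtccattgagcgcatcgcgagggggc
Nqo1: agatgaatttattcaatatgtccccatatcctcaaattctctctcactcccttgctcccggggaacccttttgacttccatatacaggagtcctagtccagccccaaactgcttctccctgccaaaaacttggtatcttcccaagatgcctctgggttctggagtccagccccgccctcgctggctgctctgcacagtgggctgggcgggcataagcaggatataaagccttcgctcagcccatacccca
Both matches lie on the strand opposite to the gene, 126 to 134 bases before the start of Gclm and 84 to 92 bases before that of Txnrd1, and read TGACGGTGC and TGACAAAGC on their own strand. The windows of Srxn1 and Nqo1 hold no match, which says only that these letters are not within this stretch.

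Gpx4 (chr10:80047166-80056439 of GRCm38, plus strand), the peroxidase on which most cells depend for protection from lipid peroxidation, was lowest in B16F10 luc2 and highest in HCmel12. Its level was 214 to 259 CPM in the 5 libraries of B16F10 luc2 (233 ± 18.5), 263 to 300 CPM in WT31 (275 ± 14.4), 285 to 323 CPM in RET (309 ± 15.2), 278 to 336 CPM in D4M (308 ± 25.3) and 277, 322, 324, 406 and 410 CPM in HCmel12 (348 ± 58.3). B16F10 luc2 libraries lay below those of all other lines without overlap, while the other 4 lines overlapped. The difference to HCmel12 was 1.48-fold (log2 fold change -0.57 ± 0.08 SE, adjusted p = 1.3e-06), that to D4M 1.32-fold (-0.40 ± 0.08, adjusted p = 0.00011) and that to WT31 1.18-fold (adjusted p = 0.011). HCmel12 was not called against D4M or RET, but without HCmel12 replicate 3 both differences were (adjusted p = 0.0058 and 0.0086). That of D4M against HCmel12 was also called with library size alone (log2 fold change -0.34 in place of -0.16, adjusted p = 0.00059) and on TPM (-0.27, adjusted p = 0.0032 to 0.0033). That of RET against HCmel12 was called with the DESeq2 Wald test (adjusted p = 0.037). Of the 31-base sequences of Gpx4 transcripts, 38.9% also occur in other genes, nearly all of them in the pseudogene Gpx4-ps2, and adding the counts of Gpx4-ps2 to those of Gpx4 changed no call.

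Aifm2 (chr10:61715263-61739260, plus strand) was the 1 member for which all 6 HIM against LM comparisons were called with the same sign, where 12.9% of all genes (1972) were. Its libraries held 13.5 to 19.9 CPM in B16F10 luc2 (17.3 ± 2.39), 10.2 to 13.2 CPM in WT31 (11.6 ± 1.15), 8.16 to 10.7 CPM in RET (9.28 ± 1.11), 6.73 to 9.25 CPM in D4M (7.57 ± 0.981) and 5.41 to 8.27 CPM in HCmel12 (6.97 ± 1.03). B16F10 luc2 stood above every other line without overlap, whereas RET overlapped with the LM lines. B16F10 luc2 exceeded HCmel12 2.47-fold (log2 fold change 1.30 ± 0.12, adjusted p = 3.1e-10), and WT31 exceeded it 1.67-fold (0.74 ± 0.12, adjusted p = 8.3e-06). D4M and HCmel12 were not called against each other (log2 fold change 0.13 ± 0.14, adjusted p = 0.43). The step from RET to D4M was 1.23-fold with an adjusted p of 0.043 and lost its call without any single one of B16F10 luc2 replicates 1, 2 and 3, D4M replicates 1, 2, 4 and 5, or RET replicates 1, 2 and 3 (adjusted p = 0.052 to 0.12), so that the count of 1 common member rests on this margin. WT31 was called above RET (log2 fold change 0.32, adjusted p = 0.014), but not on TPM (0.14 to 0.15, adjusted p = 0.34 to 0.36).

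Acsl4 (chrX:142317993-142390535, minus strand) separated the lines into steps that did not follow metastatic class. Its level was 219, 243, 233, 248 and 248 CPM in D4M (238 ± 12.4), 147 to 169 CPM in WT31 (159 ± 8.07), 89.9 to 116 CPM in HCmel12 (106 ± 11.6), 40.2 to 43.9 CPM in B16F10 luc2 (41.8 ± 1.87) and 36.5 to 45.8 CPM in RET (39.6 ± 3.81). No libraries of D4M, WT31 and HCmel12 overlapped with those of another line, while B16F10 luc2 and RET shared their range and were not called against each other (adjusted p = 0.38). D4M exceeded RET 6.03-fold (log2 fold change of RET against D4M -2.59 ± 0.07, adjusted p = 2.4e-21). Both steps among the 3 high lines were 1.5-fold, from D4M to WT31 (adjusted p = 7.4e-09) and from WT31 to HCmel12 (adjusted p = 1.2e-08). D4M, the line lowest in the melanocyte markers, had the highest Acsl4, and WT31 came next. Single markers ranked WT31 differently. It had the highest mean of all lines for Tyr, Sox10, Dct, Mlana, Oca2, Slc24a5, Trpm1 and Mc1r. After D4M, it had the lowest mean for Mitf, Tyrp1 and Rab38. The summed markers were at 23233 to 34474 CPM in WT31 libraries and 37716 to 42148 CPM in those of B16F10 luc2. They were at 21528 to 25650 CPM in RET and 15530 to 22121 CPM in HCmel12.

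Of 30 further genes of lipid substrates and lipid radical trapping, 27 were tested, and 20 to 26 of them were called per comparison, against 51.5% to 77.7% of all genes. Cyb5r1, Gch1 and Vkorc1l1 were lower in all HIM lines than in both LM lines, 3 of 27 genes where 12.9% of all genes were called with one sign throughout. Gch1, which makes the radical-trapping cofactor tetrahydrobiopterin, was at 6.63 ± 1.21 CPM in D4M, 2.44 ± 0.397 CPM in HCmel12 and 0.426 ± 0.0846 CPM in WT31. Cyb5r1, an NADH-dependent reductase, was at 230 ± 101 CPM in HCmel12 and 57.9 ± 4.29 CPM in D4M, against at most 36.1 ± 2.06 CPM in the HIM lines. Scd1, the desaturase that makes monounsaturated fatty acids, was at 79.1 ± 16.3 CPM in B16F10 luc2 and 179 ± 15.5 CPM in RET, against 631 ± 59.3 CPM in WT31, 633 ± 82.6 CPM in D4M and 669 ± 154 CPM in HCmel12. Lines low in Acsl4 were therefore also the lines low in Scd1. Lpcat3, which inserts polyunsaturated chains into phospholipids, was highest in RET (129 ± 8.54 CPM) and lowest in D4M (50.9 ± 6.64 CPM; 2.55-fold, log2 fold change 1.35 ± 0.08, adjusted p = 4.5e-14). Between them lay B16F10 luc2 (62.1 ± 6.13 CPM), WT31 (71.8 ± 5.86 CPM) and HCmel12 (81 ± 7.22 CPM). Acsl3, which activates monounsaturated fatty acids, ranged from 87.8 ± 6.52 CPM in B16F10 luc2 to 178 ± 27.6 CPM in HCmel12.

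Nqo1 (chr8:107388225-107403206, minus strand), the quinone reductase that is a classical NRF2 target, was far higher in D4M than in the other lines. D4M libraries held 122, 181, 200, 51.8 and 70.8 CPM (125 ± 65.3), that is 1166 to 4492 counts. B16F10 luc2 held 1.78 to 2.02 CPM (1.9 ± 0.0929), WT31 0.19 to 0.815 CPM (0.457 ± 0.252), HCmel12 0 to 0.692 CPM (0.316 ± 0.257) and RET 0.0372 to 0.27 CPM (0.149 ± 0.0841), or 1 to 7 counts per library in RET. The lowest D4M library was above the highest of every other line, and D4M replicates 4 and 5 lay below the other three. D4M exceeded B16F10 luc2 57.2-fold (log2 fold change of B16F10 luc2 against D4M -5.84 ± 0.58, adjusted p = 8.1e-10), WT31 261-fold (-8.03 ± 0.89, adjusted p = 6.9e-09), HCmel12 526-fold (9.04 ± 1.06 in D4M against HCmel12, adjusted p = 2.3e-08) and RET 746-fold (-9.54 ± 1.14, adjusted p = 2.6e-08). These sizes depend on values near 0: D4M against HCmel12 was 8.19 without HCmel12 replicate 1, which had 0 counts. On log2(TPM + 1) the difference was 6.3 to HCmel12 and -6.48 for RET against D4M. At the low end, B16F10 luc2 was called above RET (adjusted p = 0.016) and above HCmel12 (adjusted p = 0.019, or 0.067 without HCmel12 replicate 1), and both calls were lost without a filter on low counts (0.061 and 0.066). Against WT31 it was not called with voom (adjusted p = 0.06), although their libraries did not overlap. It was called with the edgeR quasi-likelihood test (0.00075), the DESeq2 Wald test, only the 2 lines, a replicate block and each fit on TPM (1.6e-05 to 0.0012), and without D4M replicate 2, 3, 4 or 5 (0.017 to 0.049).

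The 3 genes of the NRF2 list with the widest spans were also near 0 in some lines, though in other sets of lines than Nqo1. Ptgr1, which reduces lipid-derived aldehydes and enones, was at 36 ± 15 CPM in D4M, 39.1 ± 10.8 CPM in WT31 and 25.5 ± 3.88 CPM in HCmel12 but at 0.0412 ± 0.0517 CPM in B16F10 luc2 and 0.0608 ± 0.0771 CPM in RET. Pir, the iron-binding protein pirin, was at 12.2 ± 3.08 CPM in D4M and 4.74 ± 1.25 CPM in HCmel12, while WT31 was at 0.0461 ± 0.0504 CPM and B16F10 luc2 and RET had 0 counts in every library, which allows at most 0.124 CPM and 0.12 CPM per library. Cbr3, a carbonyl reductase, was at 18.9 ± 1.67 CPM in RET, 14.4 ± 2.79 CPM in HCmel12 and 12.3 ± 2.11 CPM in D4M, against 0.459 ± 0.153 CPM in B16F10 luc2 and 0.0226 ± 0.0339 CPM in WT31. Within D4M, Ptgr1 was lower in replicates 4 and 5 (20.7 and 23.2 CPM) than in replicates 1, 2 and 3 (33.2, 54.3 and 48.5 CPM), as Nqo1 was.

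Gclc (chr9:77754535-77794485, plus strand) and Gclm (chr3:122245557-122270732, plus strand) encode the catalytic and the modifier subunit of glutamate-cysteine ligase, the rate-limiting enzyme of glutathione synthesis, and the catalytic one was called between 8 pairs of lines where the modifier was called between 0. Gclc held 36.9 to 40.2 CPM in RET (38.7 ± 1.33), 51.9 to 69.7 CPM in B16F10 luc2 (62.9 ± 7.52), 69.7 to 86.8 CPM in D4M (76.9 ± 6.45), 82.4 to 97.1 CPM in WT31 (88.5 ± 6.26) and 70.5, 94.5, 105, 107 and 133 CPM in HCmel12 (102 ± 22.7). RET lay below all other lines without overlap. HCmel12 exceeded RET 2.58-fold (log2 fold change of RET against HCmel12 -1.37 ± 0.11, adjusted p = 5.8e-11) and WT31 exceeded RET 2.28-fold (1.19 ± 0.11, adjusted p = 6.6e-10). WT31 was not called against HCmel12 (adjusted p = 0.14) or D4M (0.093), and without HCmel12 replicate 4 both differences were (adjusted p = 0.0026 and 0.035). For D4M the log2 fold change went from 0.20 to 0.43 with library size alone (adjusted p = 0.001) and to 0.43 to 0.44 on TPM (0.0052 to 0.0058). It was also called with only the 2 lines (0.011), with a replicate block (0.049) and without HCmel12 replicate 5 (0.05 after rounding). The call of B16F10 luc2 below D4M (log2 fold change -0.29, adjusted p = 0.019) was lost with library size alone (-0.14, adjusted p = 0.26), on TPM (-0.18, adjusted p = 0.23 to 0.24) and without B16F10 luc2 replicate 4 (adjusted p = 0.059).

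Gclm held 61.3 to 105 CPM in B16F10 luc2 (81 ± 20.1), 65.6 to 91.9 CPM in D4M (78.7 ± 9.68), 51, 69.3, 83.1, 86.5 and 141 CPM in HCmel12 (86.2 ± 33.8), 60.8 to 81.8 CPM in RET (70.9 ± 9.23) and 68.9 to 105 CPM in WT31 (90.6 ± 15.9). The libraries of all lines overlapped. Its 10 differences ranged from 1.01-fold to 1.27-fold, the widest between WT31 and RET (log2 fold change 0.34 ± 0.19, adjusted p = 0.11). This difference was called without WT31 replicate 1 (0.44, adjusted p = 0.049) and with only these 2 lines (adjusted p = 0.022). That of WT31 against D4M was called with library size alone (0.42 in place of 0.19, adjusted p = 0.05 after rounding). The standard error of about 0.19 on the log2 scale limits what could have been called here. Of the 31-base sequences of Gclm transcripts, 6.8% also occur in other genes, among them Ppia (3.6%). Line means spanned 70.9 to 90.6 CPM, whereas the 5 libraries of HCmel12 alone spanned 51 to 141 CPM.

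Of 25 further genes of glutathione synthesis and use, 24 were tested and 12 to 22 were called per comparison (51.5% to 77.7% of all genes were), with 9 higher and 13 lower in WT31 against D4M, where 37.5% of all genes were higher and 38.6% lower. Slc7a11, the cystine carrier that feeds glutathione synthesis, was called between all 10 pairs. It was at 181 to 348 CPM in WT31 (252 ± 65.8), 37.9 to 70.3 CPM in D4M (50.1 ± 12.3), 10.9 to 20.6 CPM in B16F10 luc2 (14.8 ± 3.96), 3.84 to 19.9 CPM in RET (9.25 ± 6.27) and 1.61 to 9.61 CPM in HCmel12 (3.84 ± 3.36). WT31 exceeded HCmel12 by 6.35 ± 0.43 on the log2 scale (adjusted p = 8.9e-13), without overlap with any line. Its partner chain Slc3a2 was likewise highest in WT31 (1280 ± 172 CPM, against 167 ± 17.9 CPM in D4M to 375 ± 51.2 CPM in B16F10 luc2) and was higher in all HIM than in both LM lines, as was Gstm2. Gpx1 and Gsto1 were lower in all HIM lines, with Gpx1, the main cytosolic glutathione peroxidase, at 294 ± 21.9 CPM in D4M and 334 ± 30.9 CPM in HCmel12 against 100 ± 7.08 CPM in RET to 184 ± 25.6 CPM in WT31. In all, 4 of the 24 genes were called with one sign throughout, as were 12.9% of all genes. Among the widest spans, Gsta4, a transferase that conjugates the lipid peroxidation product hydroxynonenal, was at 144 ± 19.5 CPM in WT31, 12.5 ± 9.46 CPM in D4M and at most 1.07 CPM in each library of the other lines. Gstk1 was at 20.1 ± 1.66 CPM in B16F10 luc2 and had 0 counts in WT31, and Gpx7, a peroxidase of the endoplasmic reticulum, was at 4.72 ± 0.815 CPM in D4M with 0 counts in all other lines. Gsr, which regenerates glutathione, differed little (69.3 ± 8.68 CPM in B16F10 luc2 to 98.2 ± 23.2 CPM in HCmel12, called between 3 pairs).

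**Figure D3:**
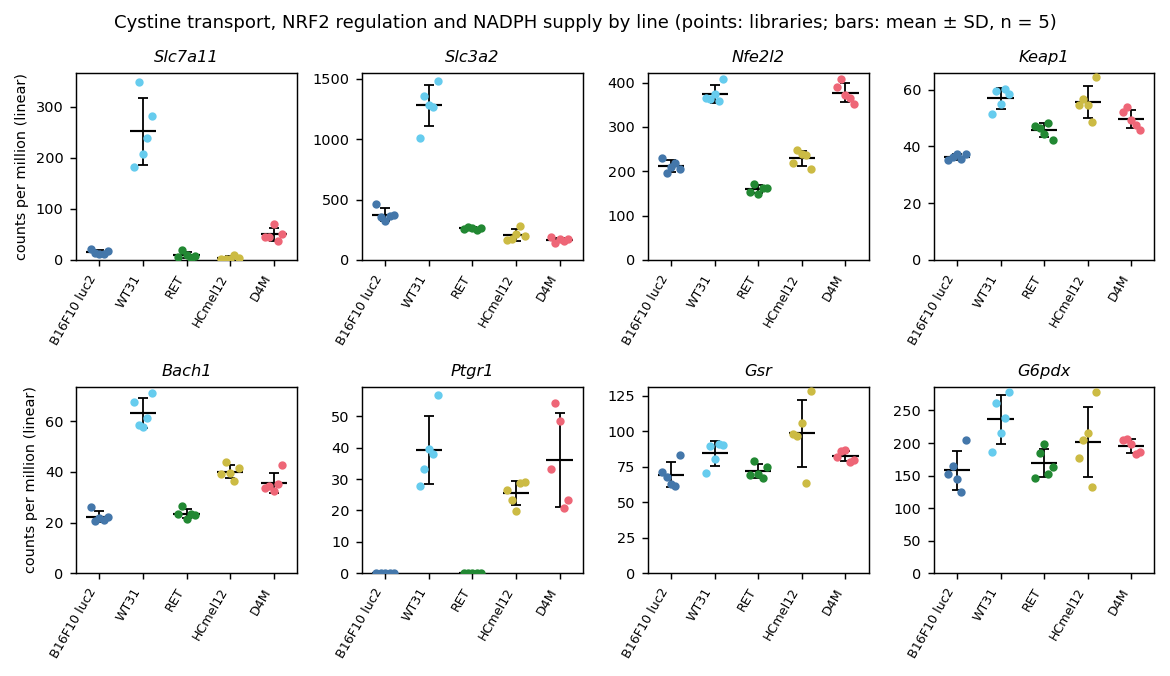
Level in CPM (linear axis from 0) of cystine transport, NRF2 regulation and NADPH supply genes in the 25 libraries, by line, with points for libraries and bars for the mean ± SD of 5. Slc7a11 and Slc3a2 were highest in WT31, Nfe2l2 was highest in D4M and WT31, and Ptgr1 was near 0 in B16F10 luc2 and RET.

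Txnrd1 (chr10:82833951-82897712, plus strand), the cytosolic thioredoxin reductase, had its highest mean in B16F10 luc2 and its lowest in D4M. Its level was 437 to 568 CPM in B16F10 luc2 (506 ± 60.7), 238, 387, 457, 492 and 492 CPM in HCmel12 (413 ± 107), 374 to 482 CPM in RET (406 ± 44.5), 332 to 434 CPM in WT31 (390 ± 40.3) and 265 to 344 CPM in D4M (295 ± 31.6). D4M libraries lay below those of B16F10 luc2 and RET without overlap and overlapped with the others. B16F10 luc2 exceeded D4M 1.71-fold (log2 fold change 0.77 ± 0.14, adjusted p = 1.7e-05) and RET exceeded D4M 1.37-fold (adjusted p = 0.0044). B16F10 luc2 was not called against RET (log2 fold change 0.32, adjusted p = 0.06). It was called above RET with the DESeq2 Wald test (0.048) and with only these 2 lines (0.0066). The same held without B16F10 luc2 replicate 3 (0.044), HCmel12 replicate 4 (0.0061) or RET replicate 2 (0.035). B16F10 luc2 was called above HCmel12 by 1.26-fold (adjusted p = 0.037), a call lost without HCmel12 replicate 1 or 4 or B16F10 luc2 replicate 1, 2 or 5 (adjusted p = 0.055 to 0.21). It was also lost with library size alone, DESeq2 size factors, the edgeR quasi-likelihood test, the DESeq2 Wald test, no filter on low counts, only these 2 lines and each fit on TPM (adjusted p = 0.053 to 0.13). The call of B16F10 luc2 above WT31 (1.3-fold, adjusted p = 0.018) was lost without B16F10 luc2 replicate 1 (0.052) or WT31 replicate 1 (0.056), with library size alone (0.055) and on TPM (log2 fold change of WT31 against B16F10 luc2 -0.23 in place of -0.37, adjusted p = 0.21 to 0.22).

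Srxn1 (chr2:152105516-152111376, plus strand), sulfiredoxin, which repairs overoxidised peroxiredoxins, fell into a high and a low set of lines. It held 127 to 202 CPM in D4M (150 ± 30.5), 113 to 192 CPM in WT31 (142 ± 30.7) and 113 to 157 CPM in B16F10 luc2 (133 ± 20), against 35.3, 55.1, 74.1, 82.1 and 134 CPM in HCmel12 (76 ± 37) and 47.1 to 65 CPM in RET (55.2 ± 8.37). RET did not overlap with the high lines, and HCmel12 did through its replicate 5. D4M exceeded RET 2.7-fold (log2 fold change of RET against D4M -1.43 ± 0.22, adjusted p = 2.0e-06) and HCmel12 2.13-fold (1.09 ± 0.22, adjusted p = 7.6e-05). HCmel12 and RET were not called against each other (adjusted p = 0.2), but were without HCmel12 replicate 4 (log2 fold change -0.58, adjusted p = 0.012).

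All 26 further thioredoxin, peroxiredoxin and superoxide genes were tested, and 16 to 24 were called per comparison, with 51.5% to 77.7% called among all genes. Txn1, thioredoxin, followed an order unlike that of its reductase, with 452 ± 25 CPM in RET, 420 ± 16.2 CPM in B16F10 luc2, 386 ± 9.7 CPM in D4M, 286 ± 34.4 CPM in HCmel12 and 234 ± 14.3 CPM in WT31. Prdx1 ranged from 993 ± 166 CPM in D4M to 1564 ± 200 CPM in RET. Txnip, which binds and inhibits thioredoxin, was at 3.9 ± 0.788 CPM in D4M and 24.5 ± 7.95 CPM in B16F10 luc2 to 51.3 ± 9.33 CPM in RET elsewhere. Sod3, the extracellular superoxide dismutase, was at 169 ± 21 CPM in WT31 and 4.62 ± 0.782 CPM in RET. Msrb2, a methionine sulfoxide reductase, was the 1 gene of this list that was higher in all HIM lines, with 26.9 ± 3.81 CPM in WT31 and 2.96 ± 0.366 CPM in D4M. That is 1 of 26 genes, where 12.9% of all genes were called with one sign throughout. GPX4 and TXNRD1 are selenoproteins, and 10 to 17 of 19 genes of selenoprotein synthesis were called per comparison (all genes, 51.5% to 77.7%). Among these, Selenop, the carrier of selenium, was at 638 ± 194 CPM in WT31, 259 ± 46.2 CPM in HCmel12 and 3.33 ± 0.773 CPM in D4M. Scly, which recycles selenocysteine, and Eefsec, the elongation factor for selenocysteine, were lowest in D4M (27.3 ± 1.53 and 28.9 ± 1.77 CPM, against 156 ± 18.6 CPM or more and 60.8 ± 3.13 CPM or more in the other lines).

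Hmox1 (chr8:75093621-75100589, plus strand) was lowest in D4M, the line in which Nqo1 was highest. Its libraries held 39.7, 39.2, 49.6, 30 and 37.4 CPM in D4M (39.2 ± 7.01), 59.9 to 77.9 CPM in WT31 (68.2 ± 7.18), 59.1 to 102 CPM in HCmel12 (79 ± 16), 81.5 to 129 CPM in B16F10 luc2 (99.7 ± 19.4) and 86.6 to 135 CPM in RET (107 ± 21.5). D4M lay below every library of the other lines. The difference was 2.72-fold to RET (log2 fold change 1.45 ± 0.16, adjusted p = 3.6e-09), 2.54-fold to B16F10 luc2 (1.35 ± 0.16, adjusted p = 1.4e-08), 2.01-fold to HCmel12 (adjusted p = 2.4e-06) and 1.75-fold to WT31 (adjusted p = 4.6e-05). RET and B16F10 luc2 were not called against each other (adjusted p = 0.6). The call of B16F10 luc2 above HCmel12 (1.27-fold, adjusted p = 0.039) was lost without B16F10 luc2 replicate 1 or 5 or HCmel12 replicate 1, 2 or 3 (adjusted p = 0.063 to 0.15), and with library size alone, DESeq2 size factors, the DESeq2 Wald test, no filter or only these 2 lines (0.058 to 0.076).

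Fth1 (chr19:9980598-9985098, plus strand) differed little relative to its abundance. It held 2429 to 3640 CPM in WT31 (2812 ± 485), 2474 to 2923 CPM in B16F10 luc2 (2697 ± 188), 2018 to 3292 CPM in D4M (2574 ± 518), 1661 to 2947 CPM in HCmel12 (2066 ± 511) and 1580 to 1867 CPM in RET (1752 ± 116). RET lay below WT31, B16F10 luc2 and D4M without overlap. WT31 exceeded RET 1.59-fold (log2 fold change 0.67 ± 0.13, adjusted p = 6.2e-05) and B16F10 luc2 exceeded RET 1.54-fold (adjusted p = 0.00029). The call of D4M above HCmel12 (1.25-fold, adjusted p = 0.03) was lost without D4M replicate 1, 2 or 3 or HCmel12 replicate 1, 2, 3 or 4 (adjusted p = 0.05 to 0.1). It was also lost without a filter (0.074) and with only these 2 lines (0.11). The log2 fold change went from 0.32 to 0.15 with library size alone (adjusted p = 0.32) and to 0.22 on TPM (adjusted p = 0.21). WT31 was not called against D4M (log2 fold change 0.14, adjusted p = 0.36). It was called above D4M with library size alone (0.36, adjusted p = 0.016) and on TPM (0.43, adjusted p = 0.016 to 0.017).

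All 25 further genes of iron and heme handling were tested and 13 to 23 were called per comparison, as were 51.5% to 77.7% of all genes. Slc40a1, ferroportin, the iron exporter, was higher in all HIM than in both LM lines, as were Pcbp1 and Blvra, with 42.4 ± 5.83 CPM in B16F10 luc2, 9.88 ± 1.41 CPM in RET and 4.53 ± 0.716 CPM in WT31 against 1.84 ± 0.712 CPM in HCmel12 and 0.716 ± 0.392 CPM in D4M. Slc39a14, Slc39a8 and Blvrb were lower in all HIM lines, with the importer Slc39a8 reaching 1.34 ± 0.457 CPM in D4M and 0.481 ± 0.144 CPM in HCmel12, while no HIM library exceeded 0.222 CPM. Together these were 6 of 25 genes, where 12.9% of all genes were called with one sign throughout. Heph, a ferroxidase of iron export, was at 1.78 ± 0.539 CPM in D4M and at most 0.0814 CPM elsewhere. Tfrc, the transferrin receptor, was lowest in D4M (164 ± 18.6 CPM) and WT31 (171 ± 25.4 CPM) and reached 403 ± 34.5 CPM in B16F10 luc2. Ftl1, the light chain that joins Fth1 in ferritin, was at 6497 ± 266 CPM in B16F10 luc2 and 2046 ± 341 CPM in D4M, but 64.1% of its 31-base sequences occur in other genes, so that its counts are uncertain.

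Nfe2l2, which encodes NRF2, was highest in D4M and WT31 and lowest in RET. Of 27 further genes of NRF2 regulation and NADPH supply, all were tested and 14 to 25 were called per comparison, beside 51.5% to 77.7% of all genes, with 17 higher and 8 lower in WT31 against B16F10 luc2 (36.4% of all genes each way) and 6 higher and 18 lower in B16F10 luc2 against D4M (38.8% and 38.9% of all genes). Nfe2l2 was at 377 ± 22.7 CPM in D4M and 374 ± 19.8 CPM in WT31, 229 ± 16.9 CPM in HCmel12, 212 ± 12.8 CPM in B16F10 luc2 and 159 ± 8.79 CPM in RET, and D4M exceeded RET by 1.24 on the log2 scale (RET against D4M -1.24 ± 0.06, adjusted p = 1.3e-16). D4M and WT31 were not called against each other for Nfe2l2 (adjusted p = 0.85), while their Nqo1 differed 261-fold. Keap1 ranged from 36.3 ± 1.02 CPM in B16F10 luc2 to 56.9 ± 3.7 CPM in WT31. Bach1, which encodes a heme-sensitive repressor of antioxidant response elements, was highest in WT31 (63.3 ± 5.96 CPM), followed by HCmel12 (40.1 ± 2.71 CPM) and D4M (35.7 ± 4.1 CPM). It was lowest in RET (23.5 ± 1.87 CPM) and B16F10 luc2 (22.4 ± 2.24 CPM). Whether Bach1 has a part in the levels of Hmox1 was not tested. Sqstm1 was higher in all HIM than in both LM lines, and Nfe2l1, Maff and Pir were lower. These were 4 of 27 genes, where 12.9% of all genes were called with one sign throughout. The lines share their libraries across these comparisons, so that such side-by-side orders over 5 lines are descriptions.

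A second pattern appeared among cultures of the same line rather than between lines. When the mean of each line was subtracted from log2 CPM, Gclc, Gclm, Txnrd1 and Srxn1 deviated together over the 25 libraries, with Pearson's r from 0.784 (Gclc and Txnrd1) to 0.911 (Gclm and Srxn1) among their 6 pairs. Fth1 and Hmox1 followed Gclm less closely (r = 0.74 and 0.671), Nqo1 and Acsl4 little (0.362 and 0.45), and Aifm2 and Gpx4 not (-0.077 and -0.143). These correlations describe libraries that share lines and media, and no p is given.

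The extremes were both HCmel12 cultures. In HCmel12 replicate 4, Gclm was at 51 CPM, Srxn1 at 35.3 CPM, Gclc at 70.5 CPM and Txnrd1 at 238 CPM, and in replicate 5 they were at 141, 134, 133 and 492 CPM. Depth was alike in these libraries, with 24283853 and 24204392 counts. Gpx4 was high in both (406 and 410 CPM). Slc7a11 was at 9.61 CPM in replicate 4 and 3.95 CPM in replicate 5, both above the other HCmel12 libraries (1.61 to 2.37 CPM). Without replicate 4 the 6 correlations ranged from 0.555 to 0.883, without replicate 5 from 0.684 to 0.886, without both from 0.464 to 0.826 and without the line HCmel12 (20 libraries) from 0.417 to 0.822.

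**Figure D4:**
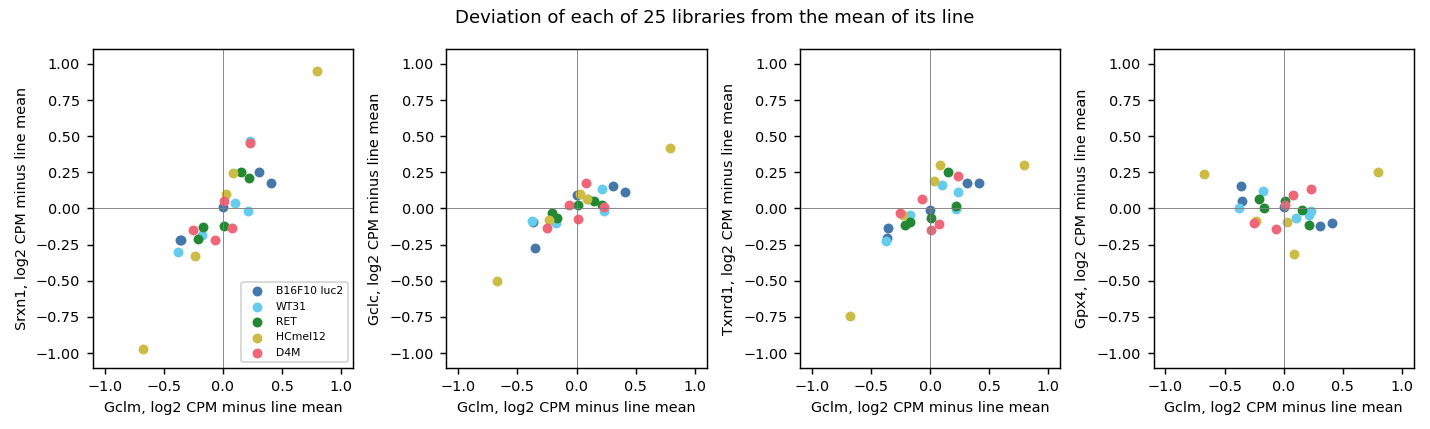
Deviation of each library from the mean of its line (log2 CPM) for Srxn1, Gclc, Txnrd1 and Gpx4 (vertical axes) against Gclm (horizontal axis), with 25 points coloured by line. Srxn1, Gclc and Txnrd1 rose along the diagonal with Gclm and Gpx4 did not, and the 2 outermost points are HCmel12 replicates 4 and 5.

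Among all 15246 other genes tested, Srxn1 was the gene whose deviations followed those of Gclm most closely, and it was followed by Pgd (r = 0.907), G6pdx (0.902), Gsr (0.883), Gclc (0.882), Gja1 (0.853), Lrp8 (0.832), Osgin1 (0.823) and Txnrd1 (0.802), compared with a median of 0.006 over all genes. G6pdx and Pgd encode the enzymes of the pentose phosphate pathway that supply NADPH, Gsr uses it to regenerate glutathione, and Osgin1 is an oxidative stress-induced growth inhibitor. G6pdx was at 132 CPM in HCmel12 replicate 4 and 278 CPM in replicate 5, and Gsr at 63.2 and 128 CPM. Nfe2l2 transcript did not vary in parallel (r = -0.091, and 0.213 without HCmel12). Without HCmel12, Gsr (0.842), Srxn1 (0.822), G6pdx (0.82), Pgd (0.811), Txnrd1 (0.782) and Gclc (0.775) stayed within the 24 highest ranks of 15246, alongside genes of other functions such as Hsd17b12 (0.852) and Eif3b (0.831), and Slc7a11 reached 0.71. Hmox1 went from rank 60 to rank 9 (0.817). Osgin1 fell to 0.643 (rank 162). Nqo1, Acsl4, Aifm2 and Gpx4 had an r of 0.248, 0.098, 0.171 and -0.404 there.

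**Figure D5:**
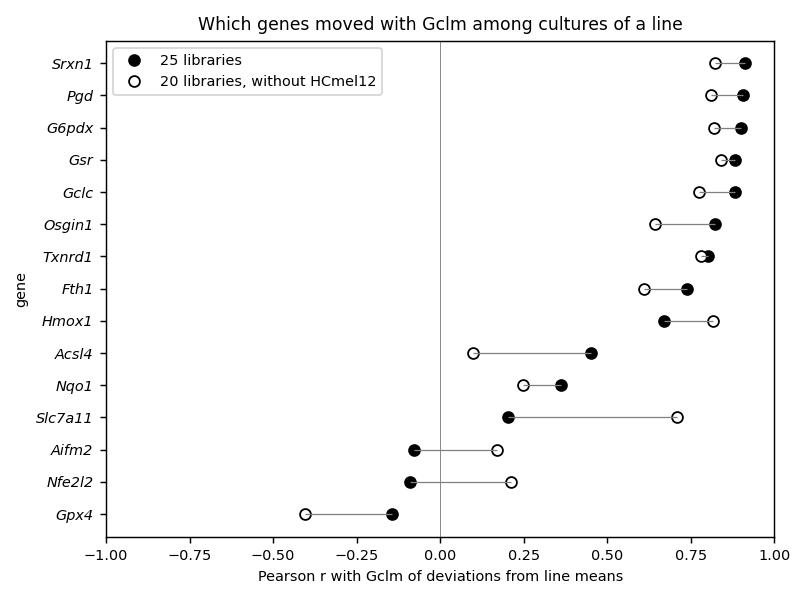
Pearson's r between the deviations of Gclm and those of the named genes from their line means, over all 25 libraries (filled) and over 20 libraries without HCmel12 (open). Srxn1, Pgd, G6pdx, Gsr, Gclc and Txnrd1 stayed at 0.775 or above in both, whereas Slc7a11 rose from 0.202 to 0.71 without HCmel12 and Gpx4 was negative in both.

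Over all 25 libraries without subtraction of line means, the genes most like each member in log2 CPM, leaving out unnamed gene models, were largely others than those that moved together within lines: Gclc and Txnrd1 had an r of -0.001 here, and Txnrd1 and Srxn1 of 0.153. Most like Gclm were G6pdx (r = 0.807), Gsr (0.729) and Fth1 (0.628), and most like Srxn1 were Clptm1 (0.88), Med15 (0.875) and Fth1 (0.873). Txnrd1 was most like Rexo1 (0.886), Osgin1 (0.863) and Bop1 (0.853), and Fth1 most like Srxn1, Rmnd5b (0.86) and Atp13a1 (0.849). For members with large differences between lines, many genes correlated closely over the libraries. With Acsl4, 357 genes had an r over 0.9, led by Ndp (0.991), Fzd8 (0.99) and Zmiz1 (0.987). With Nqo1, 124 genes did, led by Kcnab1 (0.962), Il4ra (0.96) and Hoxb4 (0.957). Such an r does not show that a gene shares the order of the 5 lines. Hmox1 was most like Lrba (0.923), Dhx35 (0.922) and Acer2 (0.92), Gclc like Eya3 (0.945), Iars2 (0.944) and Tuba4a (0.939), Aifm2 like Ntng2 (0.928), Ganc (0.928) and Mgat4b (0.915), and Gpx4 like Rpl13a (0.867), Khk (0.861) and Rbms2 (0.86).

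As a comparison of HIM- with LM-melanoma, the line means of the members were set against each other with the line as the replicate. Of 10 ways to choose 3 of 5 lines, an exact two-sided permutation test can give no p below 0.1, and none of the 10 members reached it. The mean log2 CPM of HIM-melanoma was higher by 0.76 for Aifm2 (exact p = 0.2), by 0.7 for Hmox1 (exact p = 0.3) and by 0.32 for Txnrd1 (exact p = 0.3). It was lower for Nqo1 (-3.28, exact p = 0.6), Acsl4 (-1.31, exact p = 0.3), Gclc (-0.55, exact p = 0.4) and Gpx4 (-0.27, exact p = 0.3), and differed by at most 0.06 for Fth1, Gclm and Srxn1 (exact p = 0.8, 0.9 and 1). With 5 lines this test could not have passed 0.05 for any gene, so that it leaves a relation of the members to metastatic class untested.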

How the data were processed

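RNA-seq of 25 cultures was analysed, 5 biological replicates of each of 5 lines, grouped by the line named in the labels. Per the labels and the methods of the study, the authors trimmed reads with Trim Galore (0.6.4) and assigned them to GRCm38.p6 transcripts with kallisto (0.4.6 per the labels), and deposited estimated counts per gene, without normalization, and TPM, which are scaled by transcript length. The annotation release is not given in the sources used here. TPM of D4M replicate 1 were not used here.

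Genes were matched to symbols by Ensembl identifier (55144 of 55385). In R 4.3.3, counts were filtered with filterByExpr by line and scaled by TMM (edgeR 4.0.16), and voom with limma 3.58.1 fitted a mean per line to all 25 libraries. The 10 pairwise differences were tested two-sided with Benjamini-Hochberg adjustment over 15247 genes (adjusted p under 0.05, no fold limit). A gene was counted as commonly regulated when each of the 6 HIM against LM comparisons called it with the same sign. The fit was also run on simulated counts in which a small share of genes was changed, in WT31 only. That run does not test the scaling between lines that differ in most genes. TMM factors of D4M (0.89 to 0.91) were below those of the other lines (0.99 to 1.06). Estimated counts of genes with near-identical copies are uncertain, so that 31-base sequences shared with other genes of GENCODE transcripts (GRCm38) were counted. Replicate numbers were not taken to pair libraries.

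All 10 members were named. Of each pathway list, the 3 tested genes with the widest span of line means and a set of 14 regulators and partners were named, and for each member the 3 genes with the highest correlation. The genes that followed Gclm within lines were named after their values were seen. Members and lists were chosen with earlier results of these data known. Floors (3 counts) cover counting error only. Alternatives were other scalings, DESeq2 1.42.0, edgeR's quasi-likelihood test, filters, TPM with pseudocounts of 1 and 0.1, a fold limit, a stricter threshold, a replicate block and leaving out each library. One further allele of D4M and 1 marker of other cell types are not reported here.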

Additional observations from a re-analysis of the deposited data

How the results depend on the processing

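Of 63 called differences of members between lines, 0 changed direction under any alternative run, but 40 lost their call in at least 1 (38 with the fold limit below). Of 37 that were not called, 15 changed direction and 15 became called in at least 1. With library size alone in place of TMM, members called between WT31 and D4M numbered 8 in place of 5, since TMM moved all log2 fold changes of this comparison by -0.23. Of all 15247 genes, 11754 were called there with library size alone and 11605 with TMM. Aifm2 as the single commonly regulated member gave way to 0 with DESeq2 size factors, without a filter, with at least 10 counts in every library, with a fold limit (log2 fold change of 1 or more in size) and with an adjusted p under 0.01, and the count was 0 to 1 when single libraries were left out. Of all genes, 1972 of 15247 were commonly regulated in the main fit. In the first 3 of these settings they numbered 1954 of 15247, 1905 of 34301 and 1366 of 10497. With the fold limit they numbered 630 of 15247, and 1555 of 15247 with an adjusted p under 0.01. They numbered 1888 to 2055 when single libraries were left out. The difference of Aifm2 between D4M and HCmel12, which was not called, was -0.05 with library size alone. That of Txnrd1 between WT31 and HCmel12, also not called, was 0.01 with library size alone and 0.13 with each of the 3 fits on TPM, and -0.23 to 0.03 when single libraries were left out (-0.23 without HCmel12 replicate 4, the 1 library whose omission gave a call, adjusted p = 0.04). With the fold limit, members called numbered 1 in WT31 against D4M, WT31 against HCmel12 and WT31 against B16F10 luc2, 2 in RET against HCmel12 and B16F10 luc2 against RET, 3 in B16F10 luc2 against HCmel12 and WT31 against RET, and 4 in B16F10 luc2 against D4M, RET against D4M and D4M against HCmel12, beside 14.3% to 39.8% of all genes. The cause of these shifts was not tested, apart from the stricter thresholds themselves. Nqo1 could not be fitted with at least 10 counts in every library, nor, in WT31 against RET and RET against HCmel12, with only the 2 lines. With replicate number as a replicate block, 0 calls were lost and 3 gained (Gclc in WT31 against D4M, adjusted p = 0.049, and Nqo1 in WT31 against B16F10 luc2 and RET, 0.0012 and 0.038); deviations of same-numbered libraries had a median correlation of 0, and 6 of 25 libraries correlated best with their own number. Depth limits Nqo1 outside D4M, where a library held 0 to 51 counts.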
